A study of Mus musculus with 10 samples.

Results

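The SoxC and SoxE genes encode 2 groups of transcription factors with the same DNA-binding HMG domain. Sox4, Sox11 and Sox12 make up SoxC, and Sox8, Sox9 and Sox10 make up SoxE. The chromatin around these 6 genes, of 21924 protein-coding genes in the annotation, was followed in peak lists from ATAC-seq, an assay in which a transposase inserts adapters into open DNA. A peak was assigned to a gene when its summit, the point of highest signal, lay in the gene body or within 50 kb of it. Peaks that overlapped across libraries by at least 1 bp were joined into a region, which gave 73 regions around the 6 genes of 137454 in all. SoxC genes had 35 of them (14 at Sox4, 7 at Sox11 and 14 at Sox12) and SoxE genes had 38 (18 at Sox8, 8 at Sox9 and 12 at Sox10). The assignment used position only. Regions near Sox12, Sox8 and Sox10 may belong to other genes, since 5 of the 73 lay at the start site of another protein-coding gene. Some regions, also near Sox4 and Sox9, lay within 3 kb of the start of a noncoding gene and may belong to it.

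The libraries came from neural stem cell (NSC) cultures of the subependymal zone (SEZ), the niche below the lateral ventricle of the adult mouse brain, taken at 10 weeks of age, with 50000 cells per library. Cultures were wild-type (WT) or carried a germline mutation of Cdkn1b (p27KO), which encodes the cyclin-dependent kinase inhibitor p27. As the mutation is not limited to the cultured cells, their state before culture may also have differed. Proliferating neurospheres (PRO) were kept for 3 days in vitro (DIV) in EGF at 20 ng/ml and FGF at 10 ng/ml. That time follows the methods, while another passage of the study gives a longer one. Differentiating cells (DIFF) had spent 2 DIV attached to Matrigel with FGF and then 24 h without mitogens in 2% serum, so PRO and DIFF differed in attachment and serum as well as in mitogens. Each WT condition had 3 libraries and each p27KO condition had 2, all from biological replicates. The cultures were mixtures, and fewer open cells cannot be told apart from less open chromatin per cell.

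SoxC factors are known for promoting neuronal differentiation, where Sox4 and Sox11 act on genes such as Tubb3, and Sox12 is the weaker activator of the group. SoxE factors are known for glial fates. Sox9 is active in neural stem cells and starts gliogenesis, Sox10 drives the maturation and myelin programme of oligodendrocytes, and Sox8 acts beside Sox9 and Sox10. A peak near a gene shows open chromatin, not transcription.

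The sequences below belong to the regions on which the results turn. The first set holds 151 bases centred on the summit of the 5 regions called lower at DIFF and of the region with the largest change, read from the forward strand of GRCm38, the build of the lists. Capitals mark matches, on either strand, to the SOX core (ACAAAG or ACAATG), the AP-1 motif (TGANTCA, the N in lower case) and the E-box CAGCTG. ETS (CCGGAAG), E2F (GGCGGGAA) and NFI motifs were searched for in the same way. Each line gives the gene, the distance from its start site and the position of the window.
Sox11, 18.9 kb downstream, chr12:27323580-27323730: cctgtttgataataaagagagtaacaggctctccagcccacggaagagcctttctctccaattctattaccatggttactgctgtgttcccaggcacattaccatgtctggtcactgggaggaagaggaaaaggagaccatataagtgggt
Sox9, 42.1 kb downstream, chr11:112824297-112824447: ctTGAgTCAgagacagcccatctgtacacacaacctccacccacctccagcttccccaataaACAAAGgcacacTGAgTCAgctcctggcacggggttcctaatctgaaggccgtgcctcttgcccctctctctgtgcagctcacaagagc
Sox9, 35.8 kb downstream, chr11:112817992-112818142: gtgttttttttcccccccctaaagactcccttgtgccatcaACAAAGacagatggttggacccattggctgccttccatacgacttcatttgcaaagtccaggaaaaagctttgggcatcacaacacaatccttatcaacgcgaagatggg
Sox8, 27.1 kb upstream, chr17:25597698-25597848: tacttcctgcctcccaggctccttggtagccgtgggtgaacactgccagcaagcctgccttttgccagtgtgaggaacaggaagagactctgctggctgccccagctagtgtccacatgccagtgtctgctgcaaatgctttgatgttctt
Sox12, 48.0 kb downstream, chr2:152349976-152350126: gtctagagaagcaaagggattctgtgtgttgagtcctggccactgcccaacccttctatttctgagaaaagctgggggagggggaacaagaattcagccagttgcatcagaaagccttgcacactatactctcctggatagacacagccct
Sox4, 11.5 kb downstream, chr13:28942156-28942306: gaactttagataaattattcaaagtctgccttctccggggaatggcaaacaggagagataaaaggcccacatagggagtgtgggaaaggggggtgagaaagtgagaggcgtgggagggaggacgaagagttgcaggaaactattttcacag

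Both Sox9 windows held a SOX core, and the window 42.1 kb downstream also held 2 AP-1 motifs. The other 4 windows held none of the letters searched. Across the 45 regions around the 6 genes that were found in 5 or more libraries, the ACAAAG core occurred in 10 windows (22.2%), against 16.3% of all 70509 tested windows of the same length. ACAATG occurred in 3 of 45 (6.67%) against 8.97%, the AP-1 motif in 2 of 45 (4.44%) against 6.73%, and CAGCTG in 8 of 45 (17.8%) against 17.8%. ETS was found in 1 of 45 (2.22%) against 3.26%, and neither E2F (0.644% of all windows) nor NFI (0.0964%) was found. These are matches of letters and do not show that a factor was bound.

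The second set shows a promoter of each group whose chromatin carried a peak in all 10 libraries, as the 300 bases around the start that RefSeq gives on GRCm38, on the minus strand, with capitals as above. Of the 6 genes 4 matched the RefSeq table, leaving Sox9 and Sox10.
Sox11 promoter, chr12:27342669-27342968: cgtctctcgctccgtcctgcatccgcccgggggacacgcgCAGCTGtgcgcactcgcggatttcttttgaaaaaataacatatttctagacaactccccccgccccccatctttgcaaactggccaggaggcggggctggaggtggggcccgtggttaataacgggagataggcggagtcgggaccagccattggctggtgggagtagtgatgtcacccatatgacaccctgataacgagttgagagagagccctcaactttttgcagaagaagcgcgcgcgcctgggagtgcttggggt
Sox8 promoter, chr17:25570637-25570936: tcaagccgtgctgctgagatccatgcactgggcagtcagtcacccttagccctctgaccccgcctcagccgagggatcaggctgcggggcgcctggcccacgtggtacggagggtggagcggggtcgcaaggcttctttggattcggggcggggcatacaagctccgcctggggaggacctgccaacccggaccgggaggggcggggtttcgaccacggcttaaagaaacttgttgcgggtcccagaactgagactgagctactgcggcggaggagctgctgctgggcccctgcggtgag

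The 4 promoters differed widely in base composition. The GC content was 52% at Sox4, 58.7% at Sox11, 66.3% at Sox8 and 76.7% at Sox12, against a median of 52.7% over 32851 promoters. Sox12 also had 47 CG dinucleotides, more than 98.6% of promoters, against 12 at Sox4, 21 at Sox11 and 21 at Sox8. The Sox4 and Sox11 promoters each held a CAGCTG E-box, found in 16.3% of all promoters, and none of the 4 held a SOX core, found as ACAAAG in 18.7% and as ACAATG in 12.6% of all promoters.

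Peaks at Cdkn1b were tested first because the free text of the p27KO libraries names WT cells. The Cdkn1b start-site region was open in all 6 WT libraries and lacked a peak in all 4 p27KO libraries, as titles and genotypes state. The 4 Y-linked genes examined (Ddx3y, Eif2s3y, Uty and Kdm5d) split in the same way, so genotype and the presence of Y-linked chromatin cannot be told apart in any comparison of genotypes. All 10 neural stem and progenitor markers had a start-site peak in 10 of 10 libraries. Of 5 endothelial markers 1 to 2 had a peak per library, and of 5 microglial and blood markers also 1 to 2, with Pecam1, Tek, Ptprc, Cx3cr1 and Spi1 in none. All 3 ependymal markers (Foxj1, Ccdc39 and Rsph1) also had a peak in 10 of 10 libraries, so a start-site peak does not tell these cell types apart. Lists held 76372 to 91801 peaks at PRO and 57534 to 73220 at DIFF, except WT DIFF replicate 3, which held 88738. That library had a peak where WT DIFF replicates 1 and 2 had none in 6 of 45 tested regions around the 6 genes and in 12.3% of all tested regions, while the reverse held in 0 of 45 and in 0.548%.

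Of the 73 regions, 30 had a peak in all 10 libraries (41.1%, against 27.5% of all regions), and 23 had a peak in a single library. The summit lay in an exon of a gene in 11 regions, in an intron in 28 and between genes in 34. Windows also differed in gene density. Sox4, Sox11 and Sox9 had no other protein-coding gene within 50 kb, Sox12 had Trib3, Nrsn2, Zcchc3 and 6820408C15Rik, Sox8 had Lmf1, and Sox10 had Micall1, 1700088E04Rik and Polr2f.

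**Figure D1:**
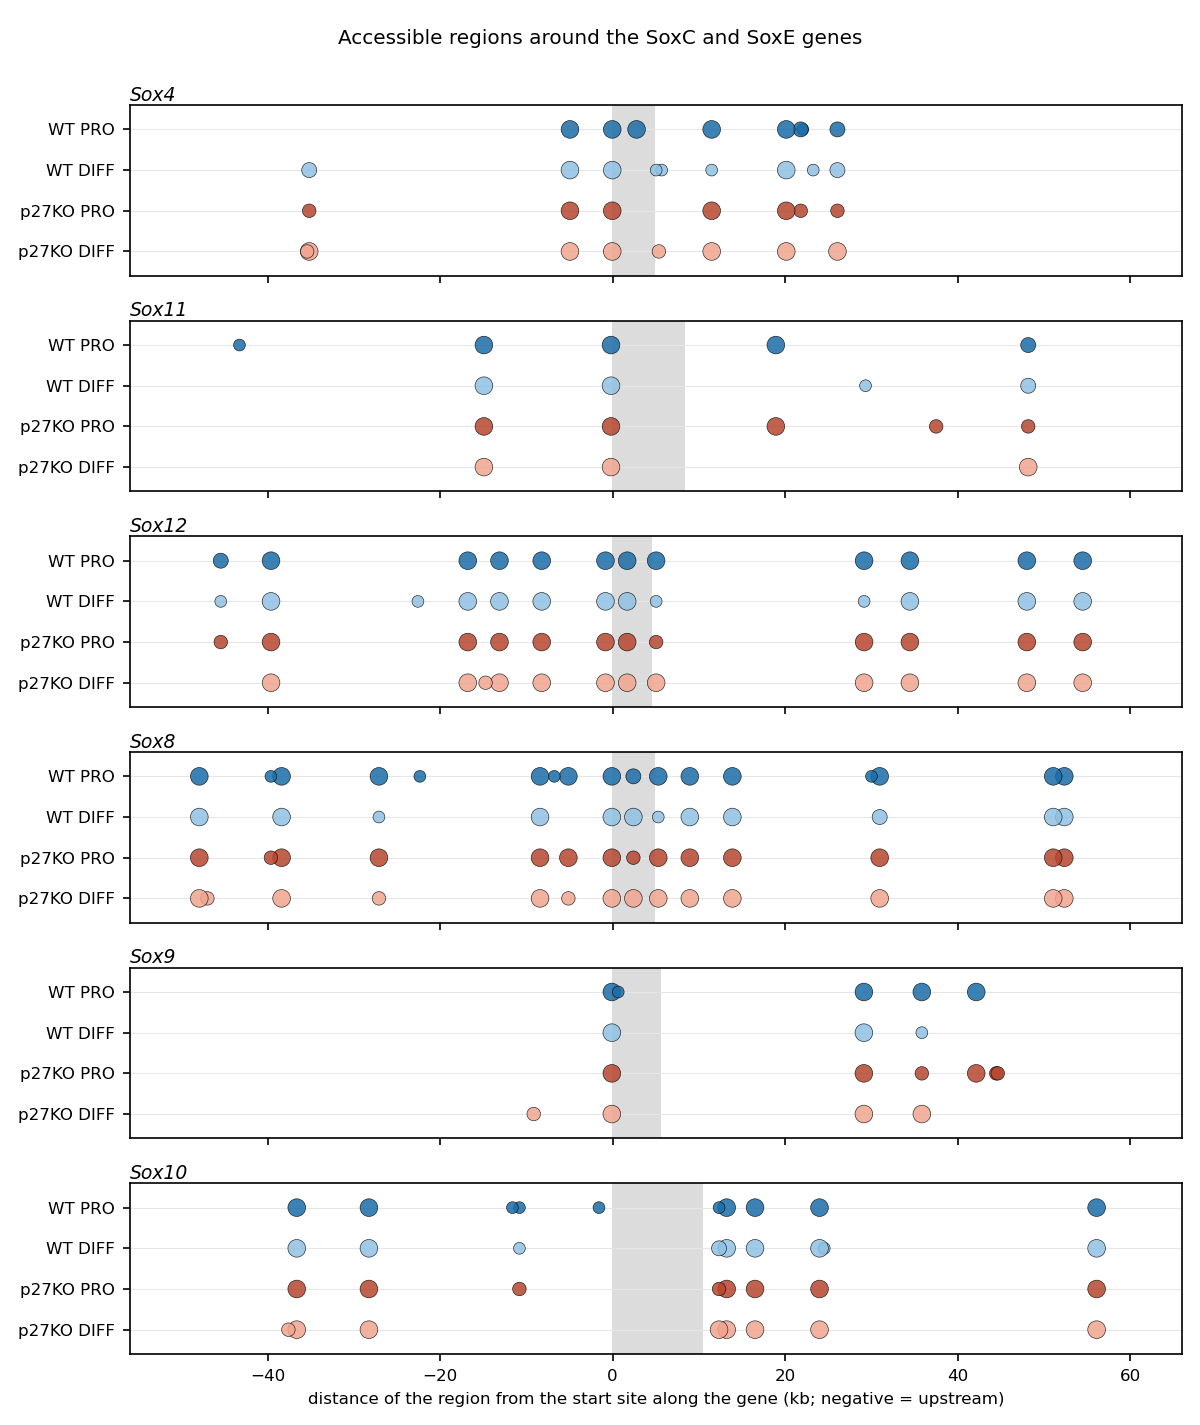
Position of every region around the 6 genes as distance from the start site along the gene in kb, with the gene body in grey. Circle size gives the share of the group's libraries with a peak, the largest standing for all of them. Peaks stood at the start of 5 genes in all groups, while the Sox10 gene body was empty.

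The height of a peak was read as the percentile of its fold enrichment within its own list, where 100 is the strongest peak, because lists differ in length and scale. For tests, ranks over the 70627 regions found in 5 or more libraries were turned into normal scores, and limma gave the change between groups in score units with its standard error (SE) and a Benjamini-Hochberg adjusted p over all 70627 regions. A region called changed had an adjusted p under 0.05. Whether groups overlapped is given as a description only, since the share of all regions whose groups separate was not counted. Regions without a peak shared the lowest score of a list, which was 0.33 higher at DIFF than at PRO in WT and 0.45 higher in p27KO because DIFF lists were shorter. A region with no peak in PRO and few in DIFF therefore carried part of its rise from list length. For the same reason the loss of a low peak at DIFF was scored on average as a smaller fall. With the 57000 strongest peaks of every list these shifts were 0.14 and 0.08. Percentiles rank a peak among the peaks of its own list, while scores rank it over the tested regions. The measures can therefore differ in the sign of a change.

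Start-site regions were open in every library at 5 of the 6 genes, and no change at them was called in either genotype. Among start-site regions of all genes, 5.02% of 13654 were called in WT and 2.33% in p27KO. Their median change in score was also upward, at 0.11 in WT and 0.13 in p27KO. In p27KO the mean percentile fell from PRO to DIFF at 3 of the 5 genes, although the score change was upward. It went from 79.2 to 76.8 at Sox11, from 64.2 to 62.9 at Sox12 and from 82.5 to 79.8 at Sox9. The 3 highest of the 5 were Sox9, Sox11 and Sox4 in all 10 libraries, in changing order, and Sox12 and Sox8 were the lowest in all 10. These percentiles describe the top of each peak and were not scaled by length.

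Sox4 had its start-site region at chr13:28952792-28954131. In WT it ranked at percentile 63.4, 70.3 and 68.6 at PRO and 73.0, 70.4 and 78.3 at DIFF. In p27KO it ranked at 74.7 and 75.8 at PRO and 78.6 and 83.2 at DIFF. All WT DIFF values lay above all WT PRO values, and the p27KO groups did not overlap either. The changes of 0.32 ± 0.16 (SE, adjusted p = 0.209, limma) in WT and 0.38 ± 0.20 (adjusted p = 0.271, limma) in p27KO did not pass the test.

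Sox11 had a wider region, chr12:27341665-27343665, and its 2001 bp exceeded 96.8% of the 13654 start-site regions. WT libraries ranked at 75.2, 67.3 and 59.9 at PRO and at 71.2, 73.9 and 82.3 at DIFF, while p27KO libraries ranked at 79.8 and 78.6 at PRO and at 77.4 and 76.2 at DIFF. The WT groups overlapped, while the p27KO DIFF percentiles lay below the p27KO PRO percentiles. The change in score was 0.38 ± 0.17 (adjusted p = 0.157, limma) in WT and 0.08 ± 0.21 (adjusted p = 0.854, limma) in p27KO. Percentile and score thus differed in direction in p27KO.

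Sox12 had the widest of the 5, chr2:152396654-152399216, whose 2563 bp exceeded 99.5% of start-site regions. It ranked at 51.2, 51.5 and 50.1 in WT PRO and at 56.8, 64.8 and 64.2 in WT DIFF, with no overlap. In p27KO it ranked at 64.8 and 63.5 at PRO and at 65.6 and 60.3 at DIFF. The change was 0.43 ± 0.18 in WT (adjusted p = 0.112, limma) and 0.19 ± 0.22 in p27KO (adjusted p = 0.635, limma).

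Sox8 had the narrowest, chr17:25570239-25571107, with 869 bp against a median of 1082 bp. WT libraries ranked at 45.7, 59.6 and 57.4 at PRO and at 48.1, 66.6 and 72.5 at DIFF, and p27KO libraries at 64.6 and 47.6 at PRO and at 61.6 and 62.6 at DIFF. Groups overlapped in both genotypes, and the changes were 0.39 ± 0.20 (adjusted p = 0.215, limma) and 0.40 ± 0.25 (adjusted p = 0.352, limma). The summit fell in an exon of the noncoding gene 2810468N07Rik, whose own start cannot be told apart from that of Sox8 here.

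Sox9 had the highest mean rank of the 5 at chr11:112781232-112782548, with a mean percentile of 77.4 over the 10 libraries. It ranked at 72.0, 70.0 and 75.9 in WT PRO, 80.2, 72.0 and 79.4 in WT DIFF, 85.7 and 79.3 in p27KO PRO, and 77.4 and 82.3 in p27KO DIFF. Groups overlapped in both genotypes, with changes of 0.26 ± 0.17 (adjusted p = 0.329, limma) in WT and 0.05 ± 0.21 (adjusted p = 0.916, limma) in p27KO. Even so, Sox9 stood only at the 44.6th percentile of start-site regions in mean rank, and Sox8 at the 22.8th. A start of the noncoding gene BC006965 also lay within 3 kb of the Sox9 start-site region.

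Sox10 had no recurring peak within 3 kb of its start. The only peak there lay 1.6 kb upstream, in WT PRO replicate 1, at percentile 22.4, and the other 9 libraries had none. No peak of any library had its summit in the Sox10 gene body.

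**Figure D2:**
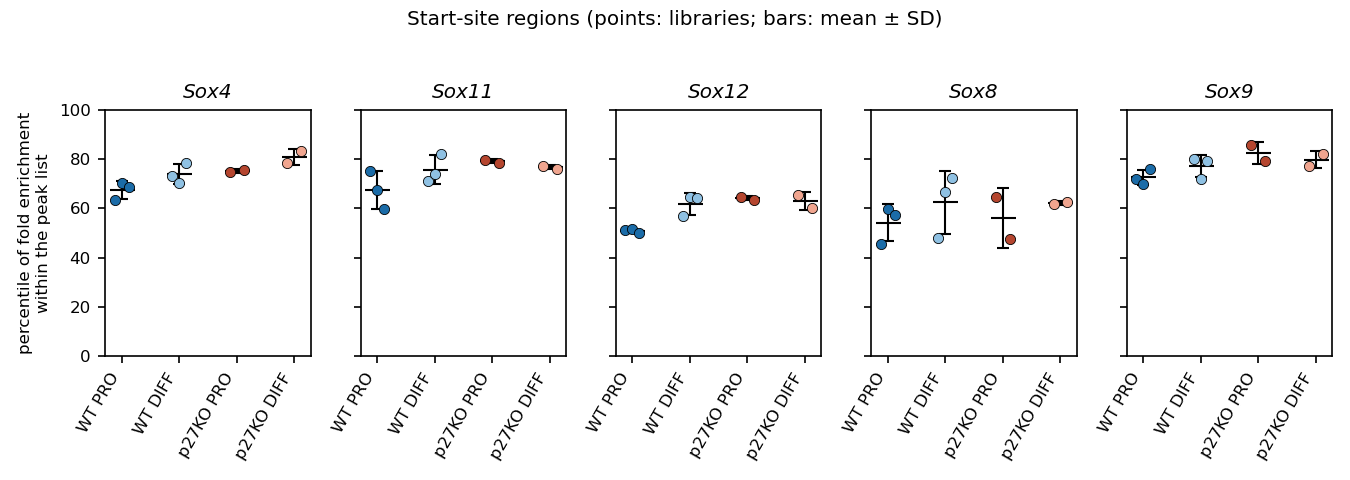
Percentile of the start-site region within each peak list for the 5 genes with a recurring start-site peak, on a linear axis from 0 to 100. Points are libraries and bars the mean ± SD. WT DIFF points lie above WT PRO points without overlap at Sox4 and Sox12 only.

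Profiles most like those of the 5 start sites over the 10 libraries were found by the root mean square difference of normal scores among 14928 genes. The nearest were Cacna1h (0.08) and Rassf2 (0.10) for Sox4, Poldip3 (0.10) and Ube2q1 (0.11) for Sox11, Ifnz (0.08) and Cisd1 (0.09) for Sox12, Fiz1 (0.11) and Gm44973 (0.11) for Sox8, and Zfp521 (0.08) and Rhoj (0.10) for Sox9. The median difference over all genes lay between 0.63 for Sox9 and 0.91 for Sox8.

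Between PRO and DIFF in WT, 7 of the 45 tested regions were called, 5 lower and 2 higher at DIFF. That is 15.6%, against 19.2% of all regions, with 10.1% called lower and 9.15% called higher among all. In p27KO 4 of 45 were called (8.89%), 1 lower and 3 higher, against 12.3% of all, 6.48% lower and 5.83% higher. Of the 5 regions called lower in WT, 2 (Sox11 18.9 kb and Sox9 42.1 kb downstream) had peaks in the 5 PRO libraries only. They reached the 5 libraries needed for a test through PRO alone and could only fall, so their test values are a description. Of the 2 called higher in WT, Sox4 35.2 kb upstream had no WT PRO peak and reached 5 libraries only with its WT DIFF peaks. It could only rise in WT, so its WT value is a description too. The median change of the 45 was 0.05 in WT and 0.16 in p27KO, against 0.03 and 0.04 over all regions. Only the Sox8 region 27.1 kb upstream was called in both genotypes. The sign of the change was shared by the other genotype at all 7 regions called in WT and at 3 of the 4 called in p27KO. At the 2 regions with peaks at PRO only, the shared sign was fixed in advance. At Sox4 35.2 kb upstream the sign in WT was fixed as well. The share of all called regions with a shared sign was not counted. The WT count was 2 to 4 when any 1 of the 10 libraries was left out. The p27KO count was 1 without WT PRO replicate 1, p27KO PRO replicate 1 or either p27KO DIFF library, 2 without WT PRO replicate 2 or 3 or p27KO PRO replicate 2, and 4 to 5 without a WT DIFF library. It was 2 with the 57000 strongest peaks of each list.

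By presence alone, a region was taken as closed when it had a peak in every PRO library of a genotype and in no DIFF library, and as opened in the reverse case. In WT 4 regions closed and 0 opened, against 4.32% and 1.86% of the 99231 regions found in 2 or more libraries. In p27KO 2 closed and 0 opened, against 10.9% and 3.32%. The rule is easier to meet with 2 libraries than with 3, so the genotypes are not compared by it. The 2 p27KO regions, at Sox11 and Sox9, were also closed in WT. Without WT DIFF replicate 3, 10 regions closed in WT, and without WT DIFF replicate 1 there was 1 that opened. In p27KO the count closed was 4 without PRO replicate 1, 7 without PRO replicate 2 and 4 without DIFF replicate 2, and the count opened was 1 to 5 without any 1 library.

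At Sox11 the distal region closed in both genotypes lay 18.9 kb downstream, beyond the 3' end, between genes, at chr12:27323399-27323741. It ranked at percentile 50.3, 39.8 and 25.9 in WT PRO and at 40.7 and 43.1 in p27KO PRO, and none of the 5 DIFF libraries had a peak. The fold enrichment over background at PRO was 3.90 to 5.82 in WT and 4.55 to 4.90 in p27KO. The change was -0.92 ± 0.23 in WT (adjusted p = 0.0163, limma) and -0.85 ± 0.28 in p27KO (adjusted p = 0.0743, limma). The region entered the test through the PRO libraries only, so a fall was the sole outcome open to it and these values do not support a change beyond the absence of peaks itself. With the replicate number as a block the p27KO value passed (adjusted p = 0.0467, limma). Without WT DIFF replicate 3 the WT value was -0.64 (adjusted p = 0.0792, limma). Absence from a DIFF list means that no peak passed the caller's threshold, at a depth that the lists do not give. With the 57000 strongest peaks the region fell below 5 libraries and was not tested.

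The other 2 recurrent distal regions of Sox11 moved differently. The region 14.9 kb upstream had a peak in all 10 libraries, at percentile 36.8 to 80.2, and changed by -0.18 ± 0.24 in WT and 0.21 ± 0.29 in p27KO, neither called. In the 2 p27KO PRO libraries its summit lay at -238 and -300 bp from the median summit, against -58 to 21 bp in the other 8. The region 48.2 kb downstream had a peak in 7 libraries and changed by 0.93 ± 0.42 in WT (adjusted p = 0.150, limma) and 1.09 ± 0.51 in p27KO (adjusted p = 0.209, limma).

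Sox4 had the deepest fall in WT, 11.5 kb downstream of its start between genes, at chr13:28942018-28942867. A start of the noncoding gene Gm26735 lay within 3 kb of this region. WT PRO libraries ranked at 66.3, 67.9 and 62.7. Of the WT DIFF libraries only replicate 3 had a peak, at 52.2. In p27KO the ranks were 68.3 and 49.2 at PRO and 24.4 and 15.6 at DIFF, so the groups did not overlap in either genotype. The change was -1.12 ± 0.26 in WT (adjusted p = 0.0105, limma) and -0.62 ± 0.31 in p27KO (adjusted p = 0.242, limma). The call was lost without WT DIFF replicate 1 (-0.94, adjusted p = 0.0541, limma) and without WT DIFF replicate 2 (-0.98, adjusted p = 0.0510, limma).

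In the other direction, the Sox4 region 35.2 kb upstream, at chr13:28988721-28989037, had no peak in the 3 WT PRO libraries or in WT DIFF replicate 1, and ranked at 16.2 and 38.1 in WT DIFF replicates 2 and 3. In p27KO it had no peak in PRO replicate 1, ranked at 16.6 in PRO replicate 2 and at 18.3 and 26.3 at DIFF. The change was 0.94 ± 0.26 in WT (adjusted p = 0.0253, limma) and 0.90 ± 0.31 in p27KO (adjusted p = 0.0900, limma). These are low peaks, and part of the rise is the shift in the score of an absent peak given above. The region reached the 5 libraries needed for a test only with its WT DIFF peaks. With no WT PRO peak the WT value could only rise, so it is a description. The WT call was lost without WT PRO replicate 1 (0.84, adjusted p = 0.102, limma), replicate 2 (0.84, adjusted p = 0.104, limma) or replicate 3 (0.89, adjusted p = 0.0845, limma).

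The Sox4 region 2.8 kb downstream in the exon of the gene at chr13:28950790-28951224, had low peaks in all 3 WT PRO libraries (percentiles 9.01, 14.8 and 7.39) and in no other library. It was present in too few libraries to be tested. The Sox4 regions 20.1 kb downstream and 4.9 kb upstream were open in all 10 libraries, with changes of -0.10 ± 0.17 and 0.10 ± 0.26 in WT that were not called.

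Sox12 lay in the most crowded window, where 9 of 11 tested regions were open in all 10 libraries. Its strongest region, 8.2 kb upstream between genes at chr2:152405872-152406669, ranked at 99.0, 95.1 and 94.9 in WT PRO, at 94.7, 95.7 and 89.2 in WT DIFF, at 97.4 and 97.5 in p27KO PRO and at 93.8 and 94.5 in p27KO DIFF. Its change was -0.29 ± 0.24 in WT and -0.29 ± 0.30 in p27KO, neither called. The peak was the highest on average of all the regions around the 6 genes, at a mean fold enrichment of 14.7.

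The Sox12 region that fell in WT lay 48.0 kb downstream in an intron of the noncoding gene Gm14164, nearer to the start of Trib3 than of Sox12, at chr2:152349681-152350327. It ranked at 94.3, 97.0 and 88.7 in WT PRO and at 61.4, 45.1 and 85.2 in WT DIFF, and at 86.0 and 86.8 in p27KO PRO and 60.6 and 64.9 in p27KO DIFF. Neither genotype showed an overlap. The change was -1.02 ± 0.23 in WT (adjusted p = 0.0107, limma) and -0.63 ± 0.29 in p27KO (adjusted p = 0.196, limma). The WT call held without each of the 10 libraries in turn, at -1.25 to -0.85.

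The Sox12 region 5.0 kb downstream, at chr2:152392919-152393077, rested on the lowest peaks of the lists. It ranked at 0.534, 6.04 and 2.98 in WT PRO, only at 0.715 in WT DIFF replicate 3, at 13.6 in p27KO PRO replicate 1 and at 0.946 and 18.8 in p27KO DIFF. The p27KO groups overlapped. The change of 0.75 ± 0.22 in p27KO (adjusted p = 0.0485, limma) was 0.31 (adjusted p = 0.413, limma) with the 57000 strongest peaks. It was lost without any of the 3 WT PRO or 4 p27KO libraries, at 0.44 to 0.90 over the 10 fits. It was also lost with the replicate number as a block (0.75, adjusted p = 0.0821, limma). In WT the change was 0.03 ± 0.18.

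Sox8 had the most regions, 13 of them tested. The region called in both genotypes lay 27.1 kb upstream in an exon of Lmf1, at chr17:25597448-25598002. WT PRO libraries ranked at 44.1, 73.2 and 30.7, and of the WT DIFF libraries only replicate 3 had a peak, at 9.62. In p27KO the ranks were 65.3 and 71.6 at PRO, and DIFF replicate 2 had a peak at 26.3 while DIFF replicate 1 had none. The groups did not overlap in either genotype, and the change was -1.04 ± 0.28 in WT (adjusted p = 0.0261, limma) and -1.19 ± 0.35 in p27KO (adjusted p = 0.0477, limma). The WT call was lost without WT PRO replicate 2 (-0.82, adjusted p = 0.0658, limma) and without any of the 3 WT DIFF libraries (-1.05 to -0.95). The p27KO call remained only without WT PRO replicate 2 or 3, and the value was -1.51 to -0.84 over the 10 fits. With ranks by -log10 p-value the p27KO call was lost (-1.09, adjusted p = 0.0544, limma). It held with the 57000 strongest peaks (-1.25, adjusted p = 0.0446, limma) and with the replicate number as a block (-1.19, adjusted p = 0.0221, limma).

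Within the Sox8 gene, an intronic region 2.4 kb downstream of the start, at chr17:25567842-25568560, carried low peaks. WT libraries ranked at 2.58 and 6.83 at PRO, with none in replicate 3, and at 2.48, 0.880 and 23.6 at DIFF. In p27KO only PRO replicate 2 had a peak, at 13.3, and the DIFF libraries ranked at 21.6 and 32.9. The change was 1.04 ± 0.28 in p27KO (adjusted p = 0.0350, limma) and 0.63 ± 0.23 in WT (adjusted p = 0.0801, limma). With the 57000 strongest peaks both passed, at 0.68 (adjusted p = 0.0362, limma) and 0.56 (adjusted p = 0.0254, limma). The p27KO call was lost without any of the 3 WT PRO libraries (0.95 to 0.96), PRO replicate 1 (0.57), DIFF replicate 1 (1.21) or DIFF replicate 2 (1.14).

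The Sox8 region 8.4 kb upstream, at chr17:25578849-25579663, was the start-site region of Lmf1, which encodes a lipase maturation factor. It ranked at 80.7, 81.4 and 84.8 in WT PRO and 93.6, 89.0 and 93.0 in WT DIFF, and at 89.6 and 84.9 in p27KO PRO and 87.0 and 93.2 in p27KO DIFF. The rise of 0.57 ± 0.18 in WT (adjusted p = 0.0450, limma) was lost without each of the 10 libraries in turn, at 0.49 to 0.64, and with the replicate number as a block (adjusted p = 0.0778, limma). The change in p27KO was 0.30 ± 0.22 (adjusted p = 0.431, limma). A further region, 5.1 kb upstream of Sox8, was closed in WT by presence, with percentiles of 14.0, 20.0 and 2.42 at PRO and no peak at DIFF. In p27KO it ranked at 8.44 and 29.6 at PRO and at 2.35 in DIFF replicate 2.

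At Sox9 the region closed in both genotypes lay 42.1 kb downstream between genes at chr11:112824288-112824462. It ranked at 44.1, 52.5 and 15.4 in WT PRO and at 28.3 and 46.3 in p27KO PRO, with no peak in any of the 5 DIFF libraries. The change was -0.89 ± 0.28 in WT (adjusted p = 0.0452, limma) and -0.72 ± 0.34 in p27KO (adjusted p = 0.216, limma). As at Sox11 18.9 kb downstream, the region was tested only because all 5 PRO libraries had a peak, and it could only fall. The WT call was lost in each of the 5 fits without a DIFF library, WT or p27KO, at -0.98 to -0.61. Without a PRO library the region fell below 5 libraries. Its window is the printed sequence with 2 AP-1 motifs and a SOX core. A start of the noncoding gene 4933434M16Rik lay within 3 kb of the region.

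Nearer to the gene, at chr11:112817710-112818335, lay the region with the largest change of the 45, 35.8 kb downstream of the Sox9 start. WT libraries ranked at 5.71, 26.0 and 20.7 at PRO, and at DIFF only replicate 3 had a peak, at 30.1. In p27KO PRO replicate 1 had no peak and replicate 2 ranked at 10.9, while the DIFF libraries ranked at 46.9 and 59.4. In p27KO the DIFF values stood far above the PRO values, and in WT the groups overlapped. The change was 1.64 ± 0.28 in p27KO (adjusted p = 0.00391, limma) and -0.08 ± 0.23 in WT (adjusted p = 0.845, limma). Libraries without a peak took the lowest score of their list. That was -1.15 and -1.07 in WT DIFF replicates 1 and 2, and -1.91 in p27KO PRO replicate 1. The -0.08 in WT therefore does not show an unchanged region. The part of these lowest scores in the 1.64 was not tested. The p27KO call held without each of the 10 libraries in turn, at 1.24 to 1.97. With the 57000 strongest peaks it had a peak in fewer than 5 libraries and was not tested.

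Sox9 also had its strongest region downstream. The region at 29.1 kb, chr11:112810697-112812022, was open in all 10 libraries at percentile 82.3 to 93.3, above the start-site region in mean rank. The change was 0.10 ± 0.19 in WT and -0.08 ± 0.23 in p27KO, neither called. Of the regions downstream of the Sox9 start, 3 were tested, and those at 0.6, 44.5 and 44.6 kb each had a peak in a single library.

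**Figure D3:**
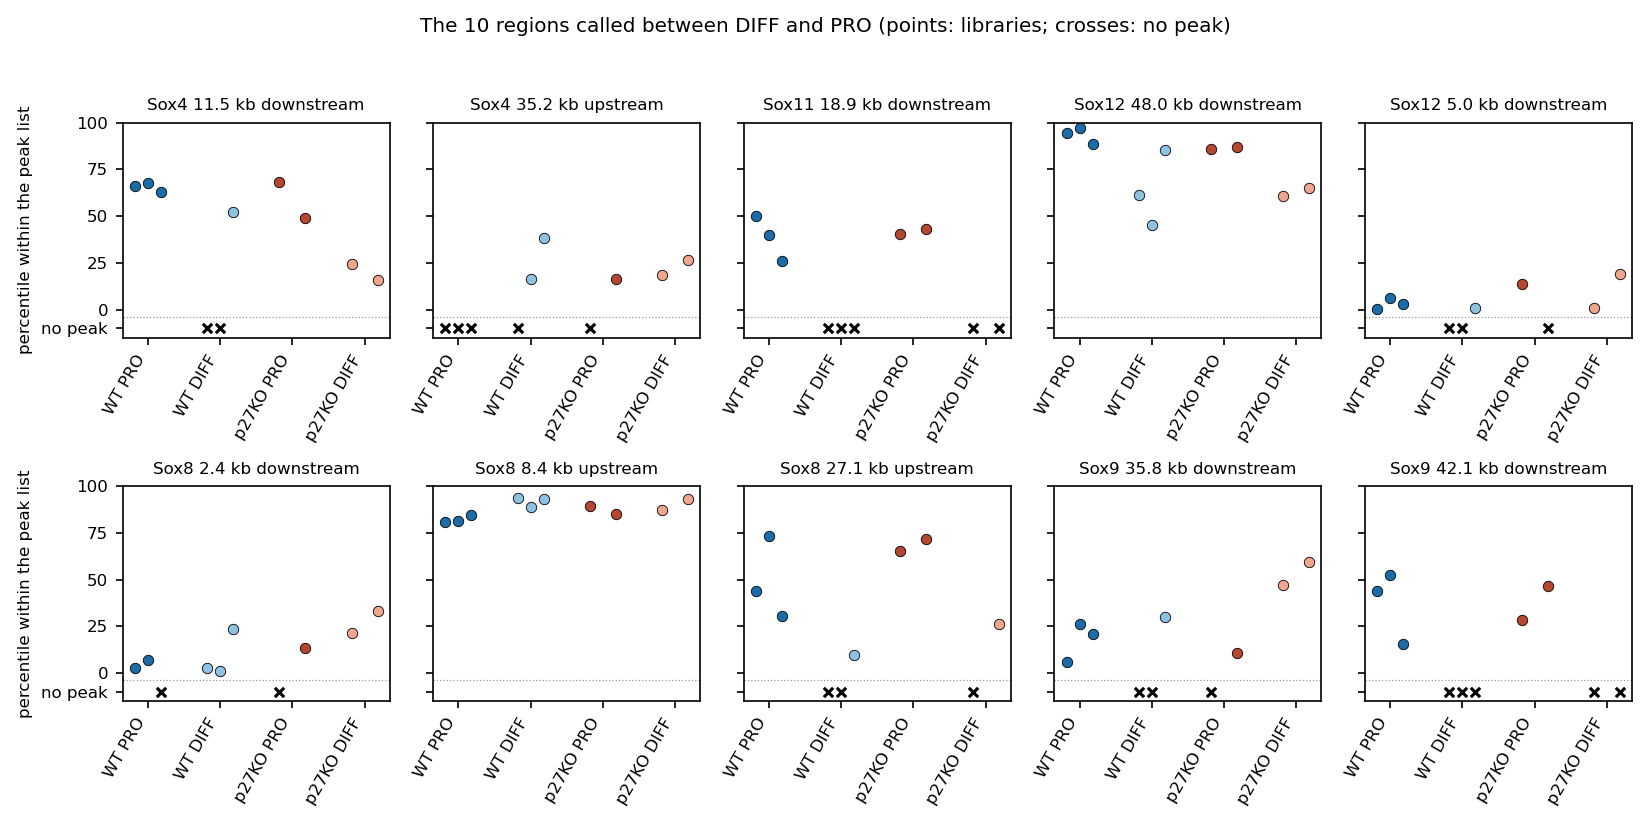
Percentile within each peak list for the 10 regions called between DIFF and PRO. Points are libraries, crosses below the dotted line are libraries without a peak, and the axis is linear. Crosses fill both DIFF groups at Sox11 18.9 kb downstream and Sox9 42.1 kb downstream, and the 2 p27KO DIFF points are the highest at Sox9 35.8 kb downstream.

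Around Sox10 none of the 7 tested regions was called in either genotype, and 6 of the 7 were open in all 10 libraries. The strongest lay 36.6 kb upstream in an intron of the noncoding gene Gm10863, at chr15:79201347-79202466. It ranked at 78.8, 88.8 and 84.2 in WT PRO and at 73.1, 60.8 and 71.1 in WT DIFF, with no overlap. In p27KO it ranked at 77.9 and 83.3 at PRO and at 77.3 and 73.8 at DIFF, also with no overlap. The change in score was -0.42 ± 0.19 in WT (adjusted p = 0.158, limma) and -0.01 ± 0.24 in p27KO (adjusted p = 0.987, limma). The region 28.2 kb upstream ranked at 69.8 to 82.1 over the 10 libraries, and its summit lay 198 and 254 bp from the median summit in the 2 p27KO PRO libraries, against -45 to 5 bp in the other 8. Downstream of Sox10, the regions at 56.1 and 24.0 kb were the start sites of Micall1 and of the pair 1700088E04Rik and Polr2f. The region 12.3 kb downstream had a peak in 6 libraries and changed by 0.61 ± 0.26 in WT (adjusted p = 0.139, limma) and 1.08 ± 0.32 in p27KO (adjusted p = 0.0518, limma).

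Whether the response to mitogen withdrawal differed between the genotypes was asked with the interaction term. It called 0 of 45 regions and 0% of all 70627. At an unadjusted p under 0.05, limma gave 2 of the 45 (4.44%) against 3.91% of all. They were the Sox9 region 35.8 kb downstream (1.72 ± 0.37, adjusted p = 1.000, limma) and the Sox12 region 5.0 kb downstream (0.72 ± 0.28, adjusted p = 1.000, limma). The difference between genotypes at Sox9 35.8 kb downstream is thus not shown by the adjusted test. The comparisons in WT and p27KO share no library, but the fit shares their spread.

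Between genotypes within a condition 0 of 45 were called at PRO and 0 of 45 at DIFF, against 0.0340% and 0.0156% of all regions. At an unadjusted p under 0.05, limma gave 1 of 45 at PRO, where 5.53% of all regions passed, and 2 of 45 at DIFF, where 4.91% passed. The largest differences, p27KO minus WT, were both at Sox9 35.8 kb downstream, at -0.61 at PRO and 1.11 at DIFF.

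**Figure D4:**
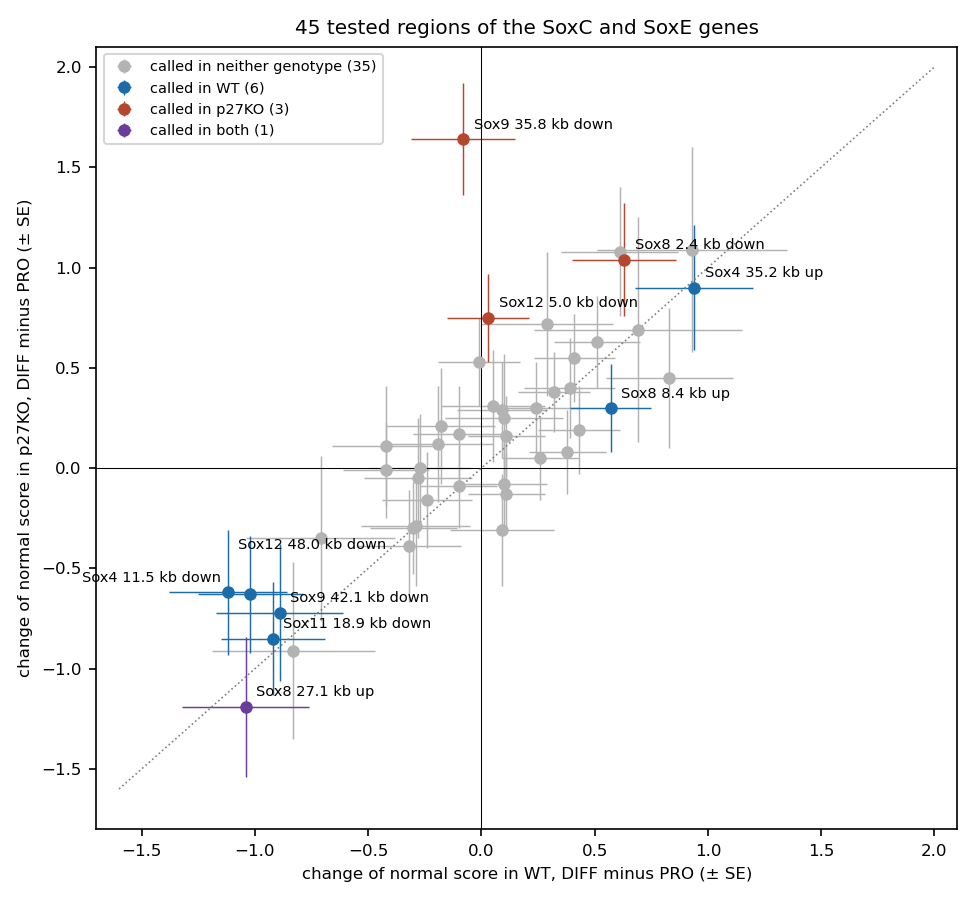
Change of the normal score from PRO to DIFF in WT (x axis) and in p27KO (y axis) for the 45 tested regions, with SE bars. The dotted line marks equal changes. The 5 called regions in the lower left had negative changes in both genotypes, and Sox9 35.8 kb downstream stands apart at 1.64 in p27KO and -0.08 in WT. The regions Sox11 18.9 kb and Sox9 42.1 kb downstream had peaks at PRO only and could only fall. Sox4 35.2 kb upstream had no WT PRO peak and could only rise in WT.

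The share of a list taken by the 6 windows was also followed. Per 10000 peaks it was 6.24, 6.40 and 6.15 in WT PRO, 6.96, 6.60 and 5.41 in WT DIFF, 5.23 and 5.96 in p27KO PRO, and 6.81 and 7.38 in p27KO DIFF. WT DIFF replicate 3 had the lowest share of its group and the longest list. In WT the mean was 6.26 ± 0.127 (SD, n = 3) at PRO and 6.32 ± 0.812 (SD, n = 3) at DIFF, and in p27KO it was 5.60 ± 0.519 (SD, n = 2) and 7.09 ± 0.402 (SD, n = 2). The WT groups overlapped and the p27KO groups did not. The difference averaged over both genotypes, 0.777, did not pass its test (exact permutation p = 0.167, two-sided). It came mostly from p27KO, and it was 1.01 without WT DIFF replicate 3. The difference between genotypes, p27KO minus WT, was 0.0486 (exact permutation p = 0.920, two-sided). Among the single genes, Sox10 had a higher share at DIFF by 0.233 per 10000 (exact permutation p = 0.0167, two-sided, the smallest that 120 arrangements allow) and Sox4 by 0.333 (exact permutation p = 0.0333, two-sided). The exact permutation p was 0.0667 for Sox12, 0.100 for Sox9, 0.717 for Sox8 and 0.850 for Sox11, and the lowest between genotypes was 0.230. Of these 12 tests, 6 genes by condition and by genotype, none passed Benjamini-Hochberg adjustment. The adjustment was over the 6 genes within each comparison, and the lowest adjusted value was 0.0999 (exact permutation), at Sox10 and Sox4 by condition. The number of peaks itself at Sox10 was 6 to 8 in the PRO lists and 6 to 9 in the DIFF lists, while most DIFF lists were shorter. The part of list length in the share was not tested.

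Other Sox genes and genes that SoxC and SoxE factors act with were examined at their own start sites. Of 13 other Sox genes, 12 were tested and none was called in either genotype, with median changes of 0.17 in WT and -0.04 in p27KO. Sox14 had no peak in any library. Of 12 oligodendrocyte lineage genes, 10 were tested and none was called, with medians of 0.07 and 0.12. Mag had no start-site peak in any library and Mog had a peak in 1. Of 8 astroglial genes, Gfap, the intermediate filament of astrocytes and adult neural stem cells, rose in WT (0.62 ± 0.18, adjusted p = 0.0362, limma), and none was called in p27KO. The p27KO change of Gfap was 0.24 ± 0.22 (adjusted p = 0.552, limma). Of 8 neuronal genes, 7 were tested and Stmn2, which encodes a neuronal microtubule regulator, rose in WT (0.63 ± 0.20, adjusted p = 0.0447, limma), and none was called in p27KO. The p27KO change of Stmn2 was 0.07 ± 0.24 (adjusted p = 0.889, limma). The interaction was called at neither Gfap nor Stmn2, so a difference between genotypes is not shown. Over all start-site regions 5.02% were called in WT and 2.33% in p27KO, with medians of 0.11 and 0.13. Tubb3, a target of Sox4 and Sox11, had a start-site peak in all 10 libraries and was not called, while Dcx, a neuroblast gene, had a start-site peak in a single p27KO DIFF library.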

How the data were processed

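Reads were clipped with Cutadapt and Trimmomatic by the authors and aligned to GRCm38 with Bowtie2, and duplicates were marked with Picard. Narrow peaks came from MACS2, run per library without a model and with an FDR of 0.05. Versions and the shift of reads are not given in the sources used here. The deposited lists give each peak's fold enrichment over background (a ratio), its -log10 p-value and its -log10 q-value, and a display score that was not used. Read depth is not in the lists, so its effect on absent peaks is unknown and no counting intervals are given.

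Groups came from sample titles. Genes were placed with GENCODE M21 on GRCm38. The 6 genes and the gene lists were chosen with earlier results of these data known. Fold enrichments were ranked within each list, turned into normal scores and tested with limma 3.58.1 (1 mean per group), after a test on simulated data. The study tested read counts, for which alignments are needed. Shares of peaks were tested with exact permutations of the libraries within each genotype or condition. Regions named are, for each gene, the one nearest to the start site within 3 kb, the one with the highest mean rank over the 10 libraries, and the largest called fall and rise in each genotype. The rule also names regions called between genotypes or closed in 1 genotype and present throughout the other. Other regions named were chosen after their values were seen. The 2 most similar genes come from the same rule. Replicates were separate biological samples, and p-values measure the spread between them. Alternatives are given in the closing section.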

Additional observations from a re-analysis of the deposited data

Results flagged for a closer look

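A pair of regions had an unadjusted p under 0.05 in the test of whether the change from PRO to DIFF differed between p27KO and WT. At the Sox9 region 35.8 kb downstream the difference of changes, p27KO minus WT, was 1.72 ± 0.37 (adjusted p = 1.000, limma). Both p27KO DIFF libraries ranked above both p27KO PRO libraries, while in WT a peak was found in 3 of 3 PRO libraries and only in replicate 3 at DIFF. At the Sox12 region 5.0 kb downstream it was 0.72 ± 0.28 (adjusted p = 1.000, limma), on peaks that were among the lowest of their lists. Among all 70627 regions tested, 3.91% had an unadjusted p under 0.05 for the same term and none an adjusted p under 0.05. Genotype and Y-linked peaks cannot be told apart in these libraries. The part of list length and library in these differences was not tested beyond the alternatives given next.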

How the results depend on the processing

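Directions at the named regions mostly held. Counts of called regions moved, in part because other settings test other numbers of regions. In WT, where 7 of 45 were called against 19.2% of all regions, there were 2 of 30 with a peak in all 10 libraries (12.9% of all), 2 of 19 in windows of 10 kb and 11 of 79 in windows of 100 kb (both 19.2%), and 2 to 4 without any 1 library. In p27KO, where 4 of 45 were called against 12.3%, there were 2 of 45 with ranks by -log10 p-value (13.4%), 2 of 50 with a peak in at least 2 libraries (8.85%), 2 of 38 with the 57000 strongest peaks (15.2%), 2 of 45 in a fit of the groups compared only (10.4%), 0 of 30 with a peak in all 10 libraries (6.33%), 2 of 19 in windows of 10 kb and 9 of 79 in windows of 100 kb (both 12.3%), and 1 to 5 without any 1 library. Clusters of summits at most 150 bp apart gave 2 of 47 between genotypes at PRO (0.0755%). In p27KO they gave 3 of 47 (10.8%), at Sox9 35.8 kb downstream, Sox11 14.9 kb upstream and Sox10 28.2 kb upstream. Of these only the Sox9 region was also called in p27KO in the main setting.

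By presence, regions closed in WT numbered 2 with the strongest peaks, 2 in 10 kb, 7 in 100 kb and 4 to 10 without any 1 library, and those opened 1, 0, 2 and 0 to 1. Closed in p27KO were 1 with the strongest peaks, 4 by summit clusters, 0 in 10 kb, 10 in 100 kb and 2 to 7 without any 1 library, and opened were 5, 2, 0, 1 and 1 to 5. The share of peaks in the 6 windows differed by 0.594 to 1.01 between DIFF and PRO and by -0.180 to 0.232 between genotypes without any 1 library.

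With ranks by -log10 p-value the sign turned at the p27KO starts of Sox11 (-0.01) and Sox12 (-0.01), and in WT at Sox12 5.0 kb downstream (-0.43) and Sox9 29.1 kb downstream (-0.15). With the 57000 strongest peaks it turned at Sox12 5.0 kb downstream in WT (-0.12). Without any 1 library the sign was not fixed in WT at Sox12 5.0 kb downstream (-0.16 to 0.29) and Sox9 35.8 kb downstream (-0.31 to 0.07), nor in p27KO at Sox9 29.1 kb downstream (-0.35 to 0.18), the Sox9 start (-0.06 to 0.15) and Sox10 36.6 kb upstream (-0.16 to 0.13). The cause was not tested.

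Same-numbered WT libraries correlated at 0.03 to 0.06 in their deviations, so the numbers were not taken as pairs. Among WT DIFF libraries each WT PRO library correlated best with its own number, but over all libraries WT PRO replicate 3 was nearest to p27KO PRO replicate 1 (0.04). A replicate block gave 7 calls in WT and 4 in p27KO, not all at the same regions. Among the named regions it lost Sox8 8.4 kb upstream in WT (0.57, adjusted p = 0.0778, limma) and Sox12 5.0 kb downstream in p27KO (0.75, adjusted p = 0.0821, limma), and gained Sox11 18.9 kb downstream in p27KO (-0.85, adjusted p = 0.0467, limma). With the p27KO DIFF numbers exchanged, chosen after seeing a correlation of -0.14, there were 7 and 3. The lists hold no read depth, which limits what an absent peak can show.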

Other observations

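The place of the summit set p27KO PRO apart at a pair of regions that were open in all 10 libraries. When summits at most 150 bp apart were grouped in place of overlapping peaks, an alternative planned for all counts, the main summits of Sox11 14.9 kb upstream and Sox10 28.2 kb upstream had no peak in the p27KO PRO libraries. They were then called lower in p27KO than in WT at PRO, by -2.10 (adjusted p = 0.0259, limma) at Sox11 and -2.22 (adjusted p = 0.00344, limma) at Sox10, and higher at DIFF than at PRO in p27KO, by 2.13 (adjusted p = 0.00239, limma) and 2.48 (adjusted p = 0.000588, limma). As whole regions, both had a peak in 10 of 10 libraries and were not called. Summit clusters score a shifted summit as an absent peak, so these values do not show a change in accessibility. Summits lay apart elsewhere too, at 289 and 292 bp for the Sox11 start in WT DIFF replicate 2 and p27KO DIFF replicate 2. At the Sox12 start WT PRO replicate 2 lay at -967 bp. The share of all regions with a split by group was not counted. These values were noticed after the data were seen, and the cause was not tested.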
